A study of Danio rerio with 3 samples.

Results

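The splicing factor and small nuclear ribonucleoprotein genes described here are the 63 genes, of 19831 in the count table, whose symbols begin with srsf, hnrnp, sf3a, sf3b, snrp or u2af. Membership was set by name alone, and no measured value entered that rule. The gene set itself was chosen with earlier results of these data known. Their transcripts were counted in single cells of zebrafish trunks at 36 hours post fertilization by STRT-seq, a plate-based method that barcodes each sorted cell in its own well. All cells described come from libraries DP 1 and DP 2, which the cell table lists as kdrl+spi2+ sorted cells of the aorta-gonad-mesonephros region. The fish carried spi2:Gal4;UAS:GFP, a relay in which spi2 drives Gal4 and Gal4 drives GFP, and kdrl:mCherry, so the gates read stable fluorescent proteins rather than the present transcripts. The labels name the double-positive cells as hemogenic endothelial cells (HECs), the endothelial cells that give rise to blood, and give no genetic or drug treatment of these cells.

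Cells were placed in classes by marker transcripts. The cdh5-positive class had at least 1 count of cdh5, the gene of the endothelial junction protein VE-cadherin, and held 6 cells of DP 1 and 5 of DP 2. The npsn-high class had npsn, a protease gene of zebrafish neutrophils, at 500 CPM or more (CPM, the count per 1000000 counts of the cell or sum), and held 5 and 2 cells. The rest, which met neither definition, held 42 and 28 cells, and 0 cells met both. In the cdh5-positive cells cdh5 ran from 5.44 to 377 CPM with a median of 79.2, and 1 cell entered on a single count. The npsn level ran from 1521 to 8159 CPM in npsn-high cells, and its highest values among the rest were 274 and 247 CPM. A low npsn signal was present in 53 of the 70 remaining cells.

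The 20 endothelial markers, which include cdh5 itself, summed to 1303 CPM in DP 1 and 1959 CPM in DP 2 in cdh5-positive cells. They summed to 304 and 385 CPM in the rest, where cdh5 is at 0 by definition, and erg was at 0 in both cdh5-positive sums. The 12 neutrophil markers, which include npsn itself, summed to 31381 and 38978 CPM in npsn-high cells, against 752 and 2034 CPM in the rest. The gene that defines each class thus adds to these gaps by construction. In DP 2 single cells of the rest had a median of 359 CPM, but the highest had 27473. The 2 npsn-high cells there had 10878 and 40638 CPM, so that cell of the rest lay above the lower of them. In cdh5-positive cells the neutrophil markers summed to 1831 CPM in DP 1 and 473 CPM in DP 2. The 7 macrophage markers in the table summed to 308 CPM in DP 1 and 156 CPM in DP 2 in cdh5-positive cells, 47.5 and 6.52 CPM in npsn-high cells, and 13.7 and 31.8 CPM in the rest. In cdh5-positive cells all of these counts were of ctsla, a lysosomal protease gene, and mpeg1.1, csf1ra, c1qb and grn1 were at 0 in each class of each library. The part of these markers in the results below was not tested.

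Kept cells had at least 500 detected genes, and which left 53 cells of DP 1 (9232289 counts in all) and 35 of DP 2 (3114643 counts). A DP 1 cell had between 15439 and 903548 counts, with a median of 134394, and a DP 2 cell between 4818 and 379006, with a median of 58292. The wells of the libraries shared 32 well numbers, and no pair of cells had identical counts. In the DP 2 npsn-high sum, 94.4% of 153267 counts came from 1 of its 2 cells, and in the DP 2 cdh5-positive sum 54.3% of 697426 counts came from 1 of 5. The labels do not say whether the embryos behind each library were separate. The main test below fits a term for the library, which takes out the shared difference between DP 1 and DP 2. Its p-values therefore weigh a class difference against an estimate of how far such differences varied between the libraries. That estimate draws on all classes and is moderated with the spread of the other tested genes. It is thus not each gene's own variation between libraries alone, and the variation between libraries may be technical. All intervals are exact 95% intervals and cover counting error only.

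Introns are removed from new transcripts by the spliceosome, which is assembled from small nuclear RNAs wrapped in protein. The Sm proteins form the ring around most of these RNAs, the U1 particle marks the start of an intron, and the U2AF proteins and the U2 particle with its SF3A and SF3B complexes mark its end and branch point. SR proteins bind exons and favour their inclusion, and many hnRNP proteins coat nascent RNA and oppose it. Zebrafish hold several of these genes as a and b copies from the genome duplication of teleost fish.

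By these roles the 63 genes comprised 8 of the Sm core, 4 other proteins of the U1 and U2 particles, 9 of SF3A and SF3B, 3 of U2AF, 16 SR protein genes and 23 hnRNP genes. All 63 had counts in DP 2 and 62 had counts in DP 1, where the SR protein gene srsf7b was at 0. The hnRNP genes hnrnpa0l and hnrnpabb were found in all 88 cells and made up 14.2% and 9.20% of the counts of the 63 genes. In all, 17 of the genes were found in 80 or more cells and 7 in under 20. Those 7, which are hnrnpa3, hnrnph1, hnrnph3, hnrnpul1l, snrpd3, srsf2b and srsf7b, also had under 100 counts each and did not pass the filter on low counts, so 56 genes were tested. The median cell held transcripts of 50 of the genes in DP 1 and 40 in DP 2. After each cell was thinned to 20217 counts, these medians were 41 and 35. The thinned medians were 42 in DP 1 and 38 in DP 2 for cdh5-positive cells, 39 and 33 for npsn-high cells, with 1 npsn-high cell left in DP 2, and 41 and 34.5 for the rest.

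Summed over the 63 genes, the level in cdh5-positive cells was 14000 CPM for DP 1 (13775 to 14227) and 9053 CPM for DP 2 (8831 to 9279). The npsn-high cells had 9921 CPM (9756 to 10088) and 7007 CPM (6595 to 7439). The rest had 15724 CPM (15630 to 15819) and 11075 CPM (10939 to 11213). The order was the same in both libraries, with npsn-high cells lowest and the rest highest. The npsn-high level was 0.63 times that of the rest in DP 1 and 0.63 times in DP 2, a mean log2 ratio of -0.66 with an SD of 0.0028 between the libraries. This SD rests on 2 values. It was 0.20 without the deepest cell of each class and library, 0.098 in thinned cells and 0.24 with npsn at 100 CPM or more. The mean log2 ratio of cdh5-positive cells to the rest was -0.23 with an SD of 0.087. The smallest two-sided p that an exact permutation test of 2 against 2 unpaired sums allows is 0.333. Keeping the pairing by library would leave fewer arrangements, so these sums are given without a test. In these data fewer transcripts per cell and a shift in the rest of the cell's RNA cannot be told apart, since CPM is a share of each sum's counts.

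**Figure D1:**
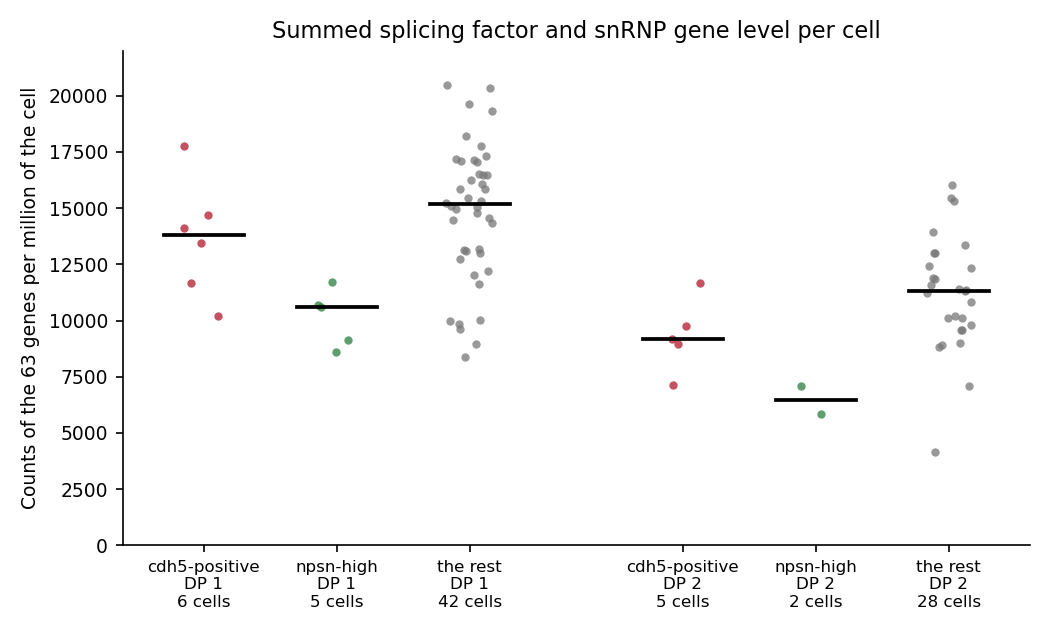
Summed level of the 63 genes in each kept cell, in CPM, by library and class (columns), with each dot 1 cell and each bar the class median. In DP 1 the medians were 13796 CPM in cdh5-positive cells, 10608 CPM in npsn-high cells and 15179 CPM in the rest, and the ranges of the classes overlap.

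The plot of single cells shows the spread within each class. In DP 1 cdh5-positive cells ran from 10194 to 17774 CPM with a median of 13796, npsn-high cells from 8598 to 11731 with a median of 10608, and the rest from 8372 to 20468 with a median of 15179. In DP 2 cdh5-positive cells ran from 7137 to 11660 CPM with a median of 9161, the 2 npsn-high cells had 5849 and 7076, and the rest ran from 4135 to 16050 with a median of 11322. All 5 npsn-high cells of DP 1 and both of DP 2 lay below the median of the rest of their library. Of the rest, 7 of 42 cells in DP 1 and 1 of 28 in DP 2 lay below the highest npsn-high cell. Of the cdh5-positive cells, 5 of 6 in DP 1 and 4 of 5 in DP 2 lay below the median of the rest. Without hnrnpa0l and hnrnpabb the sums were 10771 and 6904 CPM in cdh5-positive cells, 7915 and 5389 CPM in npsn-high cells, and 12118 and 8074 CPM in the rest, in the same order.

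Other gene lists also differed between the classes, not all in the same order, and their part in the result was not tested. The 11 S phase genes summed to 2379 CPM in DP 1 and 1117 CPM in DP 2 in cdh5-positive cells, 1383 and 196 CPM in npsn-high cells, and 2589 and 1789 CPM in the rest. The 10 genes of the G2/M phase summed to 1697 CPM in npsn-high cells of DP 1, above the 1271 CPM of the rest, but to 71.8 CPM in DP 2, where the rest had 494. In cdh5-positive cells the G2/M genes summed to 1086 CPM in DP 1 and 479 CPM in DP 2. The 7 heat shock genes summed to 6318 and 8755 CPM in cdh5-positive cells and 4072 and 4404 CPM in npsn-high cells, against 6860 and 11253 CPM in the rest. Across cells, Spearman's rho of the summed level of the 63 genes with that of the S phase genes was 0.16 in DP 1 (53 cells) and 0.52 in DP 2 (35 cells), with the G2/M genes 0.30 and 0.49, with the heat shock genes 0.25 and 0.21, with the other splicing genes described next 0.36 and 0.34, and with total counts 0.14 and -0.07. Each of these points shares its library and its cell's depth, and the coefficients are descriptions.

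Of 117 other splicing genes in the table that the names do not cover, among them the prpf, lsm and rbm genes, 110 passed the filter. They summed to 13987 CPM in DP 1 and 9793 CPM in DP 2 in cdh5-positive cells, 8679 and 6590 CPM in npsn-high cells, and 14010 and 9521 CPM in the rest. The npsn-high sums were the lowest in both libraries, but the 2 npsn-high cells of DP 2 had 6088 and 15089 CPM, so the DP 2 order rested on the deep cell, and their median of 10589 CPM lay above the 9936 CPM of the rest.

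**Figure D2:**
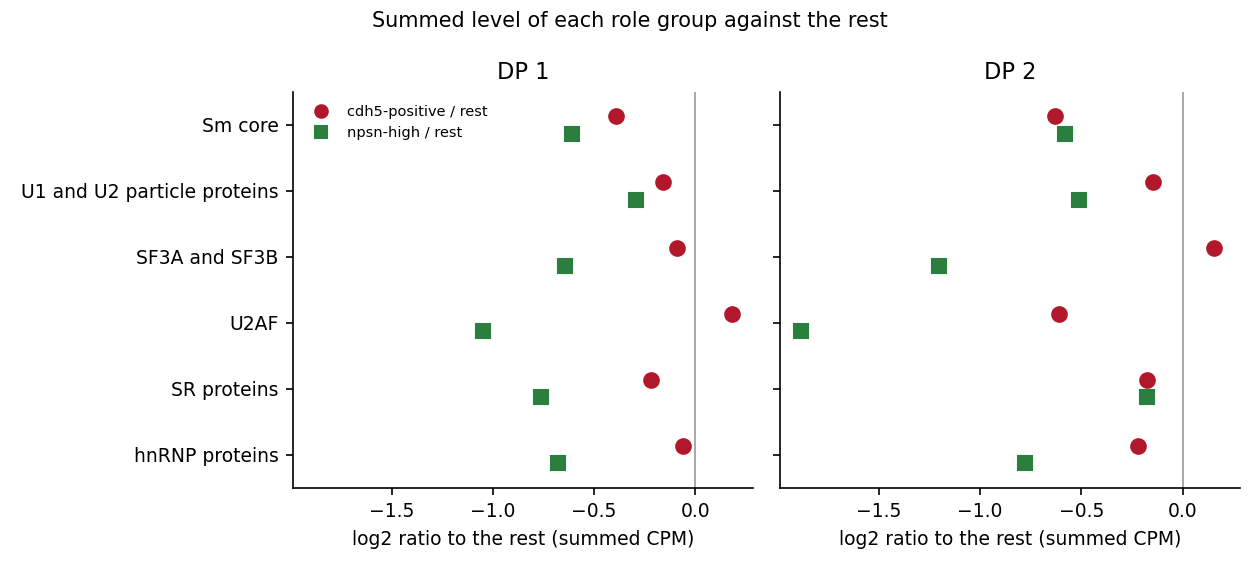
Log2 ratio of each role group's summed CPM to that of the rest, by library (panels), for cdh5-positive cells (circles) and npsn-high cells (squares). All 12 squares lie below 0, from -0.18 for the SR genes to -1.88 for U2AF, both in DP 2, while the circles lie on both sides of 0 for SF3A and SF3B and for U2AF. The DP 2 square of SF3A and SF3B rests on the deeper of 2 cells, and that of U2AF on 16 counts.

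By role, the npsn-high sums lay below those of the rest in all 6 groups of both libraries, and also with totals free of ribosomal protein and mitochondrial genes, an alternative chosen after seeing the data. The plot of role groups shows these ratios. The hnRNP genes, which made up 40.1% of the summed level in DP 1 and 44.3% in DP 2, had 5999 and 4190 CPM in cdh5-positive cells, 3909 and 2845 CPM in npsn-high cells, and 6250 and 4873 CPM in the rest. The SF3A and SF3B genes had 1325 and 903 CPM in cdh5-positive cells, 902 and 352 CPM in npsn-high cells, and 1409 and 811 CPM in the rest. The 2 npsn-high cells of DP 2 had 290 and 1404 CPM, so the low DP 2 sum rested on the deep cell. This gene group's median over those cells was 847 CPM, above the 761 CPM of the rest. Within that group sf3a2, an SF3A gene, had 203 and 178 CPM in cdh5-positive cells, 292 and 13.05 CPM (2 counts) in npsn-high cells, and 334 and 172 CPM in the rest, so its npsn-high values differed widely between libraries. The SF3B gene sf3b5 had 241 and 64.5 CPM in cdh5-positive cells, 108 and 32.6 CPM in npsn-high cells, and 239 and 77.3 CPM in the rest. Among the groups the ratio of npsn-high cells to the rest was lowest for U2AF, at 0.48 in DP 1 and 0.27 in DP 2. The DP 2 sum held only 16 U2AF counts, 15 of them of u2af1 and all from the deep cell. In DP 1 single npsn-high cells ran from 87.6 to 905 CPM, where the median of the rest was 506 CPM. The ratio for the SR genes was 0.59 in DP 1 but 0.89 in DP 2. The SR gene srsf7a had 361 and 199 CPM in cdh5-positive cells, 305 and 170 CPM in npsn-high cells, and 443 and 259 CPM in the rest. For srsf5a the values were 315 and 108 CPM in cdh5-positive cells, 261 and 97.9 CPM in npsn-high cells, and 354 and 240 CPM in the rest. By these sums both genes were lowest in npsn-high cells and highest in the rest in each library. So was hnrnpabb, with 1233 and 728 CPM in cdh5-positive cells, 858 and 600 CPM in npsn-high cells, and 1452 and 1102 CPM in the rest. In DP 2 the npsn-high intervals of srsf5a, srsf7a and hnrnpabb overlapped those of cdh5-positive cells. The 2 npsn-high cells there had 89.8 and 234 CPM of srsf5a, against a median of 119 CPM in the rest, and only 1 held srsf7a.

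The Sm genes had 3275 CPM in DP 1 and 1973 CPM in DP 2 in cdh5-positive cells, 2818 and 2042 CPM in npsn-high cells, and 4304 and 3055 CPM in the rest. Both marker classes therefore lay below the rest in both libraries, cdh5-positive cells at 0.76 and 0.65 times its level. The gene snrpg, which encodes SmG, had 756 CPM in DP 1 and 222 CPM in DP 2 in cdh5-positive cells, 651 and 613 CPM in npsn-high cells, and 728 and 629 CPM in the rest. Its low value was thus that of the DP 2 cdh5-positive sum alone. The gene snrpb, which encodes SmB, had 621 and 512 CPM in cdh5-positive cells, 457 and 111 CPM in npsn-high cells, and 697 and 587 CPM in the rest. For SmD3 nearly all counts lay under the symbol snrpd3l.

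The U1 and U2 particle genes had 522 and 320 CPM in cdh5-positive cells, 475 and 248 CPM in npsn-high cells, and 583 and 353 CPM in the rest. The gene snrpa1, which encodes a U2 protein, had 209 and 102 CPM in cdh5-positive cells, 126 and 130.5 CPM in npsn-high cells, and 173 and 119 CPM in the rest, with no shared order between the libraries. The U1 gene snrpc had 146 and 21.5 CPM in cdh5-positive cells, against 165 and 79.5 CPM in the rest.

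Each of the 56 genes was then tested on counts summed per library and class, with the library as a block (edgeR's quasi-likelihood test, two-sided, Benjamini-Hochberg adjusted over 7071 genes). Differences are log2 fold changes as fitted after TMM scaling, the first-named class over the second, with an SE. Directions of tested genes within a library were taken after the same scaling, so they can differ from those of the CPM values. Under this scaling the median of all tested genes lay at -0.15 for cdh5-positive cells against the rest, and with DESeq2 size factors at 0.054. The comparisons against the rest share the sums of the rest, so they are not independent of each other.

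Between cdh5-positive cells and the rest, edgeR called 0 of the 56 genes, where 0.721% of all tested genes were called (0.679% higher and 0.0424% lower). At an unadjusted p under 0.05 it passed 0, where 9.11% of all tested genes passed, and DESeq2's Wald test called 0 and also passed 0 unadjusted. Unadjusted counts of the Wald test, here and below, stand without a share over all tested genes, so they are descriptions only. The median log2 difference was -0.42, against -0.15 over all tested genes. In both libraries 33 of the 56 genes were lower in cdh5-positive cells, a share of 58.9% against 34.5% of all tested genes, and 6 were higher. After TMM scaling all 7 tested Sm genes were among those lower in both, with a median log2 difference of -0.85 (-0.61 with DESeq2 size factors, again 7 of 7 below 0). By CPM some genes counted as lower in both were higher in a library, among them snrpg in DP 1 and sf3a2 in DP 2. The smallest adjusted p among the 56 was 0.566, for srsf4.

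The SR gene srsf4 had 73.7 CPM in DP 1 and 25.8 CPM in DP 2 in cdh5-positive cells, against 155 and 88.3 CPM in the rest. Its log2 difference was -1.58 ± 0.83 (SE, edgeR adjusted p = 0.566). The fitted log2 difference of hnrnpd was larger in size, at -1.97, but its direction differed between the libraries. Among genes lower in cdh5-positive cells in both libraries, the next after srsf4 were snrpf, which encodes SmF, at -0.93 and the U1 gene snrpa at -0.92. They were followed by snrpc at -0.91 and snrpe, which encodes SmE, at -0.86. For snrpf, cdh5-positive cells had 294 and 268 CPM, against 606 and 366 CPM in the rest.

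In the other direction the largest log2 difference was 1.34 ± 0.84 for u2af2a (SE, edgeR adjusted p = 0.669), a copy of the gene whose protein binds the pyrimidine tract before the end of an intron. It was followed by sf3b1 at 0.93 ± 0.72, the gene of the SF3B subunit that contacts the branch point region. Among genes higher in cdh5-positive cells in both libraries, the next 3 were 0.82 for hnrnpc, 0.51 for the SF3A gene sf3a3 and 0.48 for hnrnpl2. The level of sf3b1 was 227 CPM in DP 1 and 122 CPM in DP 2 in cdh5-positive cells, against 115 and 49.9 CPM in the rest. With the deepest cell of each class and library left out, its log2 difference was -0.07, so the difference rested on those cells.

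Between npsn-high cells and the rest, edgeR called 0 of the 56 genes, where 1.98% of all tested genes were called (1.54% higher and 0.438% lower). At an unadjusted p under 0.05 it passed 3, a share of 5.36% that lies below the 12.2% of all tested genes. DESeq2's Wald test called 0 and passed 4 unadjusted, and its calls over all tested genes are not given for this comparison. The median log2 difference was -0.74, against -0.38 over all tested genes. In both libraries 36 of the 56 genes were lower in npsn-high cells, 64.3% against 46.7% of all tested genes, and 3 were higher. The plot of differences by gene shows that the libraries often lay far apart in this comparison. Within DP 2 alone the median was -1.45, above the -2.50 of all tested genes, in a sum of few counts.

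The 3 genes with an unadjusted p under 0.05 were hnrnpa0b, srsf6a and hnrnpa0l, all lower in npsn-high cells. For hnrnpa0b, npsn-high cells had 42.5 CPM in DP 1 and 71.8 CPM in DP 2 (11 counts), against 151 and 362 CPM in the rest. Its log2 difference was -1.97 ± 0.78 (SE, edgeR adjusted p = 0.238). In cells thinned to equal depth, 41 of the genes could be tested. There its log2 difference was -3.94 with an edgeR adjusted p of 0.0289, and the adjusted p ran from 0.0289 to 0.566 over the alternatives. After thinning, the DP 2 npsn-high class was 1 cell with 0 counts of hnrnpa0b, and 2 of the 5 in DP 1 held it, so this call rested on few counts. The share of all tested genes called in thinned cells is not given here, so the call is a description only.

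The SR gene srsf6a had 16.6 CPM in DP 1 and 39.1 CPM in DP 2 (6 counts) in npsn-high cells, against 129 and 76.9 CPM in the rest. Its log2 difference was -2.25 ± 0.99 (SE, edgeR adjusted p = 0.324). The abundant hnrnpa0l had 1148 and 1018 CPM in npsn-high cells, against 2155 and 1899 CPM in the rest, and its log2 difference was -0.96 ± 0.48 (SE, edgeR adjusted p = 0.408). The log2 differences were also large for srsf5b at -2.25 ± 1.31, hnrnpa0a at -2.25 ± 1.18 and sf3b1 at -1.96 ± 1.01, where the DP 2 npsn-high sum held 0 counts of srsf5b and hnrnpa0a and 6 of sf3b1. After TMM scaling only srsf9, srsf1b and hnrnpd were higher in npsn-high cells in both libraries, at log2 differences of 1.32, 1.12 and 1.04. By CPM hnrnpd was lower in npsn-high cells of DP 1, at 78.5 CPM against 88.6 CPM in the rest. By CPM hnrnpk and hnrnpl2 were also higher in npsn-high cells in both libraries. The gene srsf9 had 51.1 and 163 CPM in npsn-high cells, against 49.1 and 14.6 CPM in the rest, so its difference came from DP 2. Without the deepest cell of each class and library, the log2 differences of srsf9 and srsf1b were -0.36 and -0.31, with the sign turned.

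**Figure D3:**
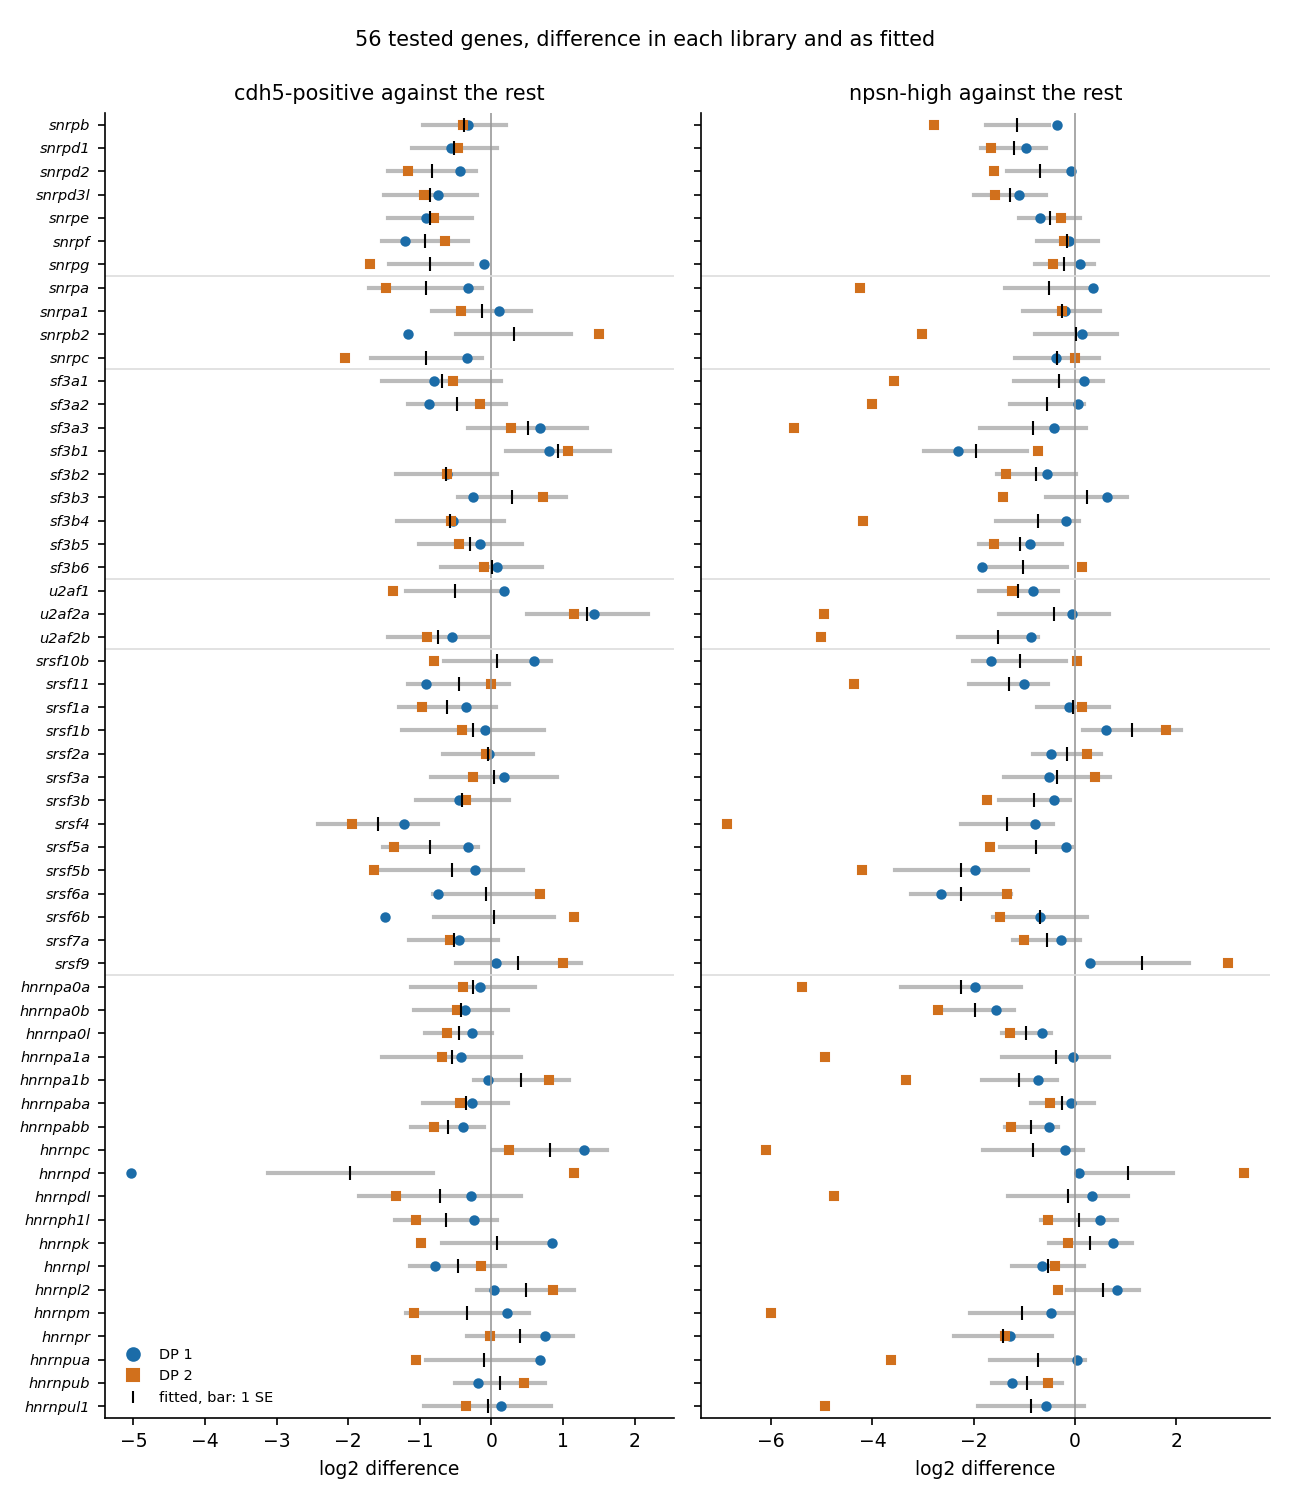
Log2 difference of each of the 56 tested genes from the rest, for cdh5-positive cells (left) and npsn-high cells (right), in DP 1 (circles), in DP 2 (squares) and as fitted over both (ticks, with bars of 1 SE), ordered by role. The fitted values of the 7 Sm genes lie below 0 in both panels, as do those of 40 (left) and 48 (right) of all 56 genes. With DESeq2's Wald test 5 of the 7 Sm genes lay below 0 for npsn-high cells against the rest. None of the 56 genes passed an adjusted p of 0.05.

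Between cdh5-positive and npsn-high cells, edgeR called 0 of the 56 genes, where 3.28% of all tested genes were called (1.26% higher and 2.02% lower). It passed 3 at an unadjusted p under 0.05, again 5.36%, where 16.9% of all tested genes passed. DESeq2's Wald test called 0 and passed 7 unadjusted. The median log2 difference was 0.27, against 0.22 over all tested genes, and 22 genes were higher in cdh5-positive cells in both libraries (39.3%, against 34.6% of all tested genes) while 8 were lower. By library the median was 0.069 in DP 1 and 1.202 in DP 2, and with npsn at 100 CPM or more it was -0.077. Of the 56 genes, 26 differed in direction between the libraries here.

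The smallest adjusted p in this comparison was that of sf3b1, with 227 CPM in DP 1 and 122 CPM in DP 2 in cdh5-positive cells, against 18.7 and 39.1 CPM in npsn-high cells. Its log2 difference was 2.89 ± 1.02 (SE, edgeR adjusted p = 0.107). For srsf6a it was 2.17 ± 1.04 (SE, edgeR adjusted p = 0.268). It was 1.99 for hnrnpa0a, 1.82 for hnrnpr and 1.75 for u2af2a. In the other direction hnrnpd, whose mammalian counterpart binds AU-rich elements of messenger RNA, had 1.89 CPM (2 counts) in DP 1 and 27.2 CPM in DP 2 in cdh5-positive cells, against 78.5 and 144 CPM in npsn-high cells. Its log2 difference was -3.01 ± 1.22 (SE, edgeR adjusted p = 0.176). In the rest hnrnpd had 88.6 CPM in DP 1 and 10.2 CPM in DP 2, so the cdh5-positive cells stood below the rest in DP 1 and above it in DP 2. Among genes lower in cdh5-positive cells in both libraries, the next 4 were -1.38 for srsf1b, -0.95 for srsf9, -0.78 for snrpf and -0.71 for hnrnph1l, and that of srsf1b was 0.53 without the deepest cells.

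Among the 110 other splicing genes, edgeR called 0 in cdh5-positive cells against the rest, where 0.721% of all tested genes were called. At an unadjusted p under 0.05 it passed 5, or 4.55%, against 9.11% of all tested genes (DESeq2's Wald test 0 and 4). In npsn-high cells against the rest edgeR called 0, against 1.98% of all tested genes. It passed 7, or 6.36%, against 12.2% (Wald test 0 and 11). Here the median log2 difference of the 110 genes was -0.67 and 65.5% were lower in both libraries. These values lay near the -0.74 and 64.3% of the 56 genes. For cdh5-positive cells against the rest they were -0.26 and 45.5%, against -0.42 and 58.9% for the 56 genes. Between cdh5-positive and npsn-high cells edgeR called 1, where 3.28% of all tested genes were called. The Wald test called 2, and its calls over all tested genes are given at the end. The edgeR call was srpk1b, a copy of the gene of a kinase that phosphorylates SR proteins. It had 228 CPM in DP 1 and 109 CPM in DP 2 in cdh5-positive cells, against 14.4 CPM and 0 counts in npsn-high cells. Its log2 difference was 3.59 ± 1.096 (SE, edgeR adjusted p = 0.0498), higher in cdh5-positive cells in both libraries, and its adjusted p ran from 0.00635 to 0.140 over the alternatives. The rest had 64.5 and 61.4 CPM of srpk1b.

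Among the 63 genes, 11 pairs of a and b copies with counts could be compared within a cell class, where the share of the a copy does not depend on depth. The balance ranged widely between pairs. Over all 88 cells the a copy gave 99.8% of the srsf7 counts, 98.1% of srsf2, 90.1% of srsf1 and 88.4% of srsf5. It gave 29.1% of hnrnpab, 22.7% of hnrnpa0, 19.8% of hnrnpu, 14.7% of u2af2, 13.7% of srsf3 and 13.6% of hnrnpa1. The pair nearest to balance was srsf6, at 62.7%, and srsf6a without srsf6b was found in 17 cells, srsf6b without srsf6a in 18 and both in 43. Both copies of hnrnpab were found in 86 of 88 cells, whereas both copies of srsf7 were found in 3. How reads from near-identical copies were assigned is not given in the sources used here, and transcript length differs between copies, so these shares compare classes and libraries rather than the copies' molecules.

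**Figure D4:**
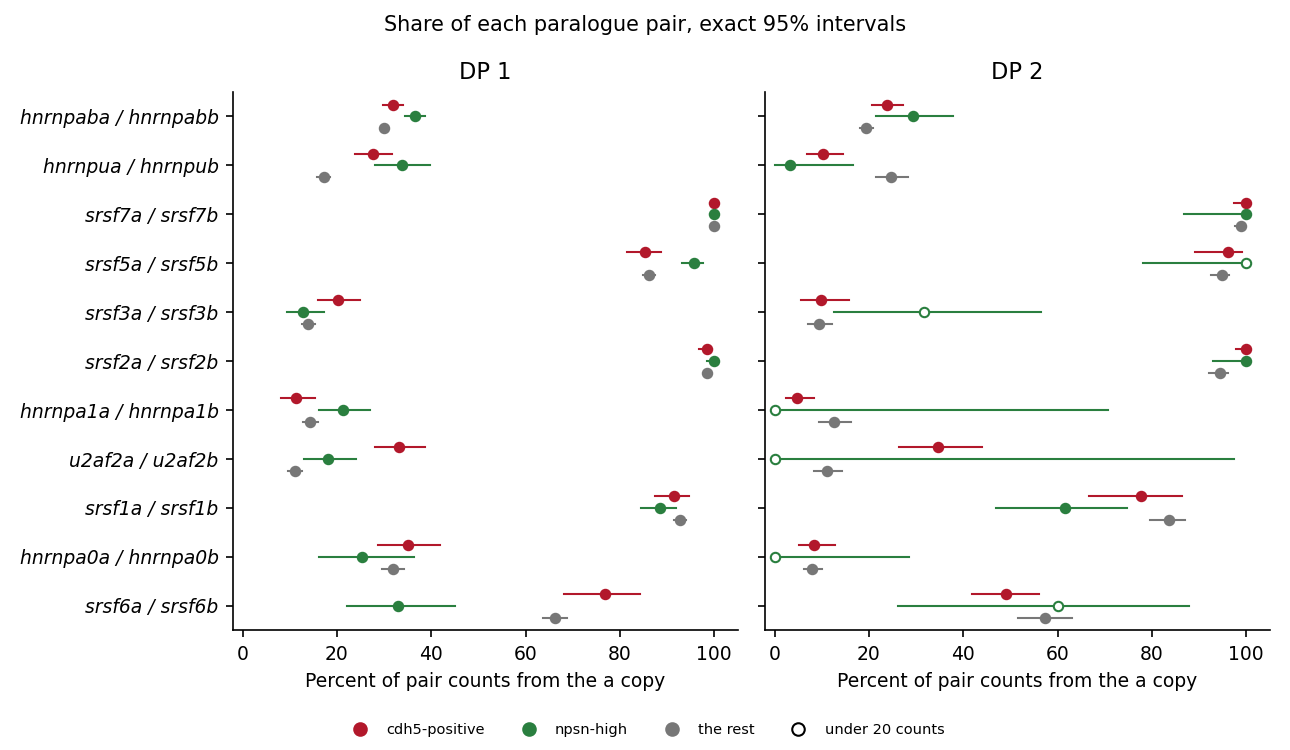
Percent of each paralogue pair's counts that came from the a copy, by library (panels) and class (colours), with exact Clopper-Pearson 95% intervals and open circles for sums under 20 counts. For u2af2 the cdh5-positive shares of 33.2% in DP 1 and 34.7% in DP 2 lie above the 11.04% and 11.09% of the rest.

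The pair with like class shares in both libraries and a wide gap between classes was u2af2. The a copy gave 33.2% of its counts in cdh5-positive cells of DP 1 (107 of 322, interval 28.1 to 38.7) and 34.7% in DP 2 (42 of 121, interval 26.3 to 43.9). In npsn-high cells it gave 18.05% in DP 1 (37 of 205) and 0 of 1 count in DP 2. In the rest it gave 11.04% in DP 1 (223 of 2020, interval 9.71 to 12.5) and 11.09% in DP 2 (52 of 469, interval 8.39 to 14.3). These intervals do not overlap between cdh5-positive cells and the rest, but they leave out the spread between cells, which was wide.

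**Figure D5:**
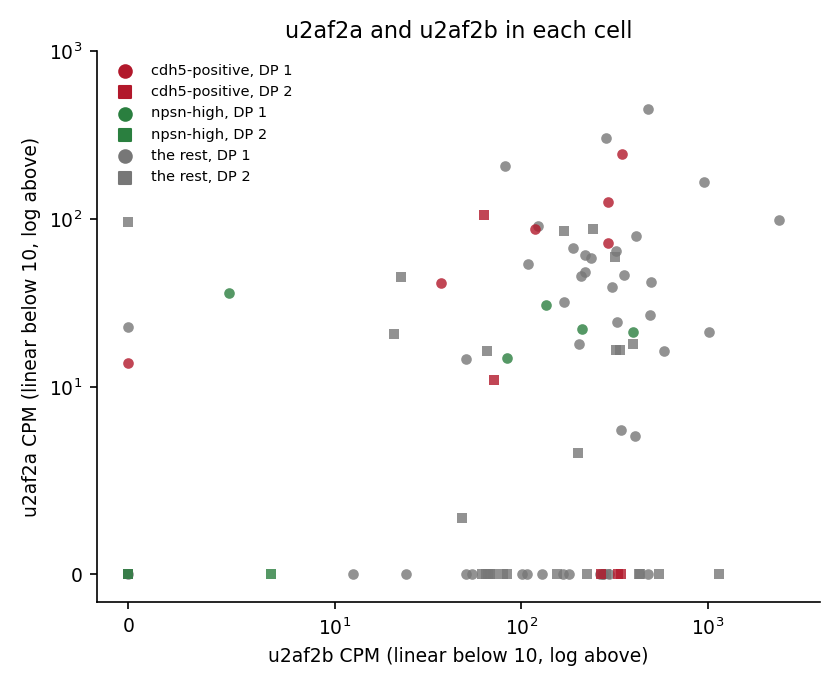
Level of u2af2a (vertical) against u2af2b (horizontal) in each kept cell, in CPM on axes that are linear below 10 and logarithmic above, with colours for class and circles for DP 1 or squares for DP 2. All 6 cdh5-positive cells of DP 1 held u2af2a, and 2 of the 5 in DP 2 did.

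The plot of u2af2 copies by cell shows where those counts came from. In DP 1 all 6 cdh5-positive cells held u2af2a, with 1, 9, 14, 17, 21 and 45 counts, as did 27 of 42 cells of the rest. The cell with 45 counts was the cell that entered the class on a single count of cdh5. In DP 2, 2 of 5 cdh5-positive cells held u2af2a, with 40 and 2 counts, as did 12 of 28 of the rest. Without the cell with the most u2af2a counts in each class, an alternative chosen after seeing the data, the cdh5-positive share was 29.1% in DP 1, against 10.4% in the rest. In DP 2 it was then 3.51% (2 of 57 counts), against 8.37% in the rest. The DP 2 value thus rested on 1 cell. As levels, u2af2a had 101 CPM in DP 1 and 60.2 CPM in DP 2 in cdh5-positive cells, 26.6 CPM and 0 counts in npsn-high cells, and 32.9 and 23.0 CPM in the rest. Its copy u2af2b had 203 and 113 CPM in cdh5-positive cells, 121 and 6.52 CPM (1 count) in npsn-high cells, and 265 and 184 CPM in the rest. The partner gene u2af1, whose protein reads the last bases of the intron, had 316 and 78.9 CPM in cdh5-positive cells, 117 and 97.9 CPM in npsn-high cells, and 250 and 178 CPM in the rest.

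For hnrnpab the a copy gave 31.9% in DP 1 and 23.7% in DP 2 in cdh5-positive cells, 36.5% and 29.2% in npsn-high cells, and 30.1% and 19.4% in the rest, the same order in both libraries. The DP 1 intervals of cdh5-positive cells (29.8 to 34.0) and the rest (29.3 to 30.8) overlapped. The DP 2 interval of cdh5-positive cells (20.5 to 27.1) overlapped those of the rest (18.1 to 20.9) and of npsn-high cells (21.6 to 37.8). In DP 2 only 1 of the 2 npsn-high cells held hnrnpaba. The hnrnpu pair had no such shared order. Its a copy gave 27.6% and 10.2% in cdh5-positive cells, 33.7% and 3.23% in npsn-high cells, and 17.2% and 24.7% in the rest, so both marker classes stood above the rest in DP 1 and below it in DP 2. For srsf6 the npsn-high share was 32.9% in DP 1, against 66.3% in the rest, while the 10 counts of DP 2 gave 60.0%, against 57.4%. For srsf3 the a copy gave 20.2% and 9.87% in cdh5-positive cells, 12.9% and 31.6% in npsn-high cells (19 counts in DP 2), and 13.9% and 9.39% in the rest. For hnrnpa1 it gave 11.4% and 4.74% in cdh5-positive cells, 21.2% and 0% in npsn-high cells (3 counts in DP 2), and 14.4% and 12.6% in the rest, with cdh5-positive cells below the rest in both libraries. The DP 1 intervals of these classes overlapped (8.24 to 15.3 and 12.9 to 15.9). In DP 2 the 11 hnrnpa1a counts of cdh5-positive cells came from 1 of 5 cells. For srsf5, srsf7 and srsf2 the a copy gave at least 85.4% of the counts in each class of both libraries.

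Some balances differed between libraries more than between classes. For hnrnpa0 the a copy gave 31.9% of the counts in all kept cells of DP 1 and 7.97% in DP 2, with 35.0% and 8.37% in cdh5-positive cells and 31.8% and 7.97% in the rest. The level of hnrnpa0b was 132 CPM in DP 1 and 334 CPM in DP 2. Most of the other genes went the other way, since 54 of the 63 were higher in DP 1, and 34 were higher in DP 1 in each of the 3 classes. Of the 56 genes with at least 100 counts, 91.1% were higher in DP 1, against 73.4% of all 6455 such genes, with median log2 ratios of DP 1 to DP 2 of 0.58 for each set. Higher in DP 1 in each of the 3 classes were 34 of these 56 genes and 2372 of the 6455. The DP 2 npsn-high sum of only 153267 counts enters both of these numbers.

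Summed over the 63 genes the level was 14654 CPM in DP 1 and 10422 CPM in DP 2, a ratio of 1.41. Ribosomal protein genes took 30.3% of the counts in DP 1 and 40.1% in DP 2. Without ribosomal protein and mitochondrial genes in the totals the ratio was 1.19. The 7 skeletal muscle markers summed to 17.9 CPM in DP 1 and 235 CPM in DP 2, and the 7 heat shock genes to 6378 and 10357 CPM, and their part in the library difference was not tested. With 1 library on each side these values have no replicate check.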

How the data were processed

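The authors deposited whole-number counts per gene and cell for STRT-seq of DP 1 and DP 2, used as given. The submitters' processing notes name GRCz11, HISAT2 2.1.0 and Trimmomatic 0.36, for several assays together and with no order. Not given in the sources used here are the counter, any collapsing of molecules, strand use and the cell filter. Counts are not divided by transcript length, so levels are not ranked between genes, and no sequences or coordinates are reported. The cell table lists 93 SP cells and 56 further DP 2 cells that were not analysed here, and lacks 1 counted DP 1 well. The filter of 500 genes removed 5 cells. Since cells were sorted singly, doublets were not called.

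The counts of each class in each library were added up as deposited, giving 6 sums. The test was the bias-adjusted quasi-likelihood method of edgeR 4.0.16 under R 4.3.3, after filterByExpr and TMM, with cdh5 and npsn left out. Libraries pair the classes because each library gave a sum of every class. The SE printed is the size of the log2 difference over the square root of F. DESeq2 1.42.0, other scaling, filters, class limits, thinning and leaving out cells or a library were alternatives. The test was checked on simulated data, for cdh5-positive cells against the rest only. The simulation gave every gene the same dispersion and did not vary class differences between libraries. It therefore cannot show how the test performs at the spread of these data.

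Named genes are those past the threshold, the 5 largest log2 differences each way with the same direction in both libraries, the 2 with most counts per role, and the paralogue pairs. Genes with an unadjusted p under 0.05 are also named. The symbols snrpa and snrpb differ only in the last letter but encode different proteins and were not treated as a pair, a choice made after seeing the names. The genes, lists and classes were chosen with earlier results of these data known.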

Additional observations from a re-analysis of the deposited data

How the results depend on the processing

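The count of 0 called genes among the members held in each comparison under every alternative run, except that thinned cells gave 1 (hnrnpa0b) for npsn-high cells against the rest. In that setting the DP 2 npsn-high class was 1 cell with 0 counts of the gene, and the share called over all tested genes is not given. Without a library no residual degrees of freedom remain, so counts of calls could not be run. Over all tested genes, calls for cdh5-positive cells against the rest numbered 51, and 33 with DESeq2 size factors, 31 with DESeq2's Wald test, 21 with no count filter, 11 with thinned cells, 2 with the legacy quasi-likelihood method, and 0 both without the replicate block and with npsn at 100 CPM or more. For npsn-high cells against the rest they numbered 140, and 90 with no filter, 63 without the replicate block, 87 with the deepest cells left out, 55 with npsn at 100 CPM and 77 with the legacy method. For cdh5-positive against npsn-high cells they numbered 232, and 533 with the Wald test, 103 without the replicate block, 135 with thinned cells, 72 with npsn at 100 CPM and 140 with the legacy method. Leaving out the replicate block changed no call among the members and lost that of srpk1b, whose adjusted p was then 0.0980. That call was also lost with DESeq2 size factors, no filter, npsn at 100 CPM, 1000 or more genes per cell and the legacy method.

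The summed level of npsn-high cells against the rest stayed negative, with mean log2 ratios of -0.83 without the deepest cells, -0.70 in thinned cells, -0.49 with npsn at 100 CPM and -0.79 with totals free of ribosomal protein and mitochondrial genes (added after seeing the data). For cdh5-positive against npsn-high cells the ratios were 0.56 without the deepest cells and 0.25 with npsn at 100 CPM. By library the ratio with npsn at 100 CPM was 0.49 in DP 1 and 0.0084 in DP 2, where the classes were nearly level. The members' median log2 difference for cdh5-positive cells against the rest was -0.21 with DESeq2 size factors, -0.19 with the Wald test and -0.58 with no filter, and ran from -0.46 to -0.28 without a library. For npsn-high cells against the rest it ran from -1.45 to -0.41 without a library. For cdh5-positive against npsn-high cells it ran from 0.069 to 1.202, and was -0.077, with its sign reversed, with npsn at 100 CPM. Of 377 values of single genes under the alternatives, 4 changed sign, all without the deepest cells. They were sf3b1 for cdh5-positive cells against the rest (-0.071), srsf1b for npsn-high cells against the rest (-0.31) and for cdh5-positive against npsn-high cells (0.53), and srsf9 for npsn-high cells against the rest (-0.36). The causes were not tested. Depth limits the npsn-high class most, since its DP 2 sum held 153267 counts, where the limit of 3 counts taken for a count of 0 is 19.6 CPM and the exact 95% interval reaches 24.1 CPM.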
